A study of Mus musculus with 14 samples.

Results

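The pyruvate dehydrogenase kinases and phosphatases, the enzymes that switch the mitochondrial pyruvate dehydrogenase (PDH) complex off and on, were measured in RNA from mouse intervertebral discs (IVDs). The 6 genes were chosen by symbol, 4 kinases (*Pdk1*, *Pdk2*, *Pdk3* and *Pdk4*) and 2 phosphatase catalytic subunits (*Pdp1* and *Pdp2*), out of 55487 genes in the count table, and all 6 passed the filter on low counts. The db/db mice (n = 3) carry a point mutation of the leptin receptor in every tissue. They were compared with db/+ heterozygous littermates (n = 3), both obtained at 12 weeks of age. The STZ-HFD mice (n = 4), of strain C57BL/6J and 12 weeks old at the start, were fed a high-fat diet for 4 to 6 weeks, received streptozotocin, a toxin of insulin-producing cells, once at 100 mg/kg, and stayed on that diet for a further 12 weeks. Their controls, Con+Veh (n = 4), were C57BL/6J mice of the same age on chow that received only the citrate buffer and are called Wild-type in the labels. All mice were male, and each library came from 5 tail discs of 1 mouse.

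The PDH complex converts pyruvate from glycolysis into acetyl-CoA and so commits glucose carbon to oxidation. The kinases phosphorylate its E1 alpha subunit and turn the complex off, and the phosphatases remove the phosphate and turn it on again. *Pdk4* is known to rise in muscle and heart during fasting, high-fat feeding and insulin lack, when tissues burn fatty acids in place of glucose, *Pdk1* is known as a target of the hypoxia-inducible factor, and *Pdk2* is the broadly expressed kinase. Discs are nearly avascular, and their cells draw most of their energy from glycolysis.

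Total counts ran from 16076908 to 58943169 per library, and 8945906 to 35031712 remained outside ribosomal RNA. At these depths 3 counts, the smallest level treated as measured, correspond to 0.0431 to 0.163 CPM (counts scaled by the library total and its TMM factor), far below every member in every library. Con+Veh 2 and STZ-HFD 4 stood apart with 21.8% and 21.1% of counts in mitochondrial ribosomal RNA, and the members and lists were also fitted without both. The labelled tissue was checked against its markers. The 14 cartilage and annulus genes were above 0 in all libraries, with summed levels of 55450 to 80250 CPM in db/+, 28470 to 64950 in db/db, 5414 to 19660 in Con+Veh and 2075 to 4408 in STZ-HFD. Of 9 nucleus pulposus and notochord markers, 7 passed the filter, and the list summed to 119 to 644 CPM in db/+, 174 to 301 in db/db, 170 to 1299 in Con+Veh and 226 to 751 in STZ-HFD, while *Noto* had 0 counts in 11 of 14 libraries and *Shh* in 8. Skeletal muscle markers were abundant too, and they reached 10900 to 29200 CPM in STZ-HFD, above the disc markers of the same group. In Con+Veh they were at 9908 to 13550 CPM. They lay above the cartilage and annulus sum in Con+Veh 1 and Con+Veh 2 and below it in Con+Veh 3 and Con+Veh 4. In bulk RNA, fewer cells of a type and less RNA per cell cannot be told apart.

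Compared per length of exon, as CPM per kilobase (RPKM), *Pdk2* led in all 4 groups. Its mean level was 30.3 RPKM in db/+, 22.8 in db/db, 38.9 in Con+Veh and 45.6 in STZ-HFD. In db/+, db/db and Con+Veh no library of the next gene, *Pdp1*, came up to the lowest library of *Pdk2*. Below it in db/+ the other 5 genes lay close together, from *Pdp1* at 2.78 RPKM through *Pdk3* (2.24), *Pdk4* (2.10) and *Pdk1* (1.57) to *Pdp2* at 1.12, and each overlapped its neighbour. In db/db the order was *Pdp1* (3.70 RPKM), *Pdk3* (3.66) and *Pdk4* (3.50), which overlapped, and then, without overlap, *Pdk1* (1.53) and *Pdp2* (0.908). In Con+Veh the order after *Pdk2* was *Pdp1* (5.36), *Pdk4* (4.60), *Pdp2* (2.59), *Pdk1* (1.91) and *Pdk3* (1.39), again with overlap between neighbours. The place of *Pdp2* in Con+Veh rests on gene counts that the transcript estimates did not share, since by those it came last, at 4.54 TPM (a level per transcript length). The transcript estimates also placed *Pdk1* higher, at rank 3 in db/+ (19.2 TPM) and in Con+Veh (35.7 TPM). The STZ-HFD group was the exception to the order by RPKM. There *Pdk4* stood second at 33.4 RPKM, its libraries overlapped those of *Pdk2*, and all of them lay above *Pdp1* (5.80 RPKM). Last came *Pdk1* (1.98 RPKM), *Pdp2* (1.22) and *Pdk3* (1.15), each overlapping the next. By the transcript estimates *Pdk1* lay apart from these in STZ-HFD, at 31.0 TPM against 4.65 for *Pdp2* and 4.56 for *Pdk3*.

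**Figure D1:**
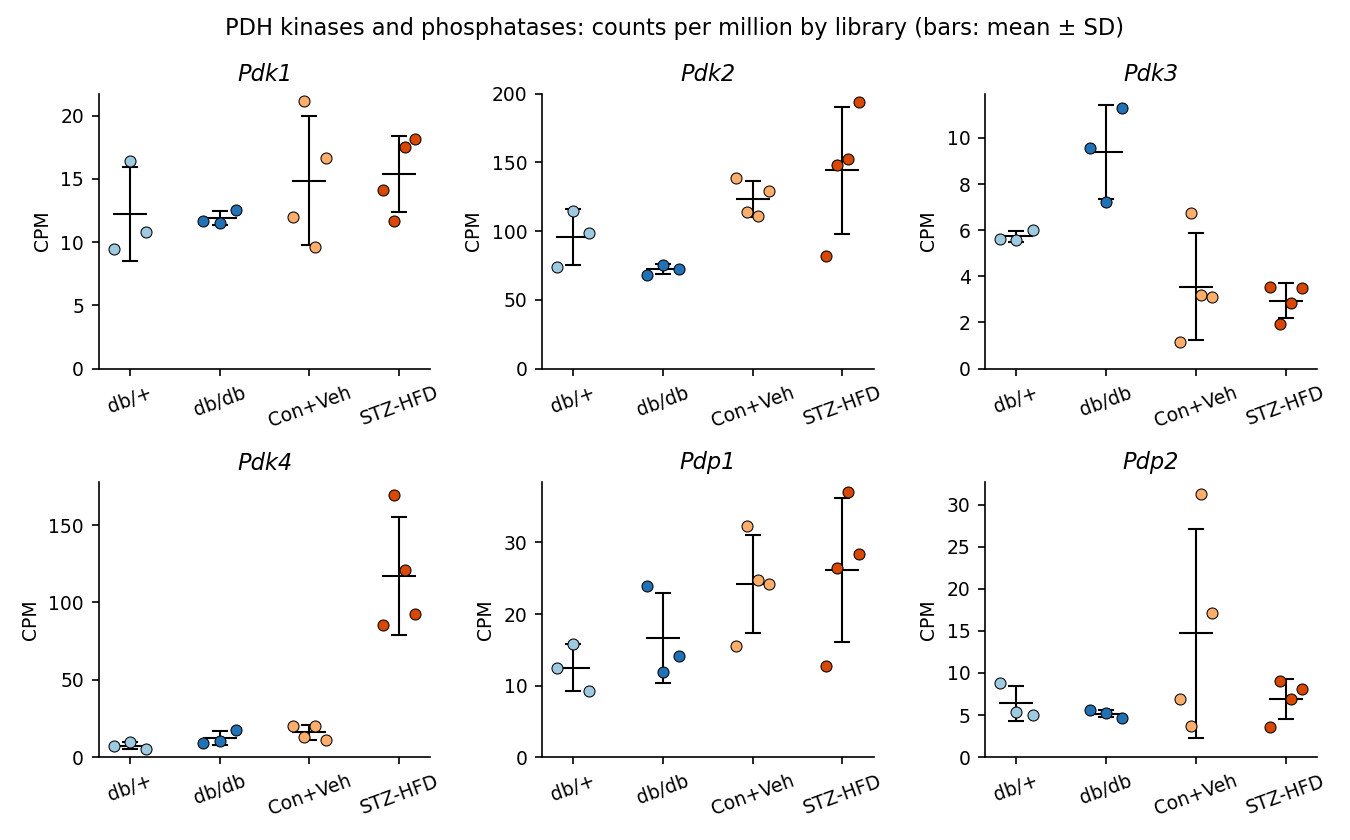
Level of each kinase and phosphatase in CPM (linear axis from 0) for every library, with the groups of each model side by side and the group mean and SD as bars. The 4 STZ-HFD libraries sit at 85.4 to 170 CPM of *Pdk4* and the 4 Con+Veh libraries at 10.9 to 20.4 CPM, while the groups of each model overlap for the other genes except *Pdk3* in db/db.

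*Pdk4* (ENSMUSG00000019577) lies on chromosome 6 from 5483351 to 5496309 of GRCm38, minus strand, and encodes the kinase of the fasted state. In STZ-HFD discs it was at 85.4, 170, 121 and 92.4 CPM in replicates 1 to 4, and in Con+Veh discs at 20.4, 13.0, 20.3 and 10.9 CPM. Every STZ-HFD library was above every Con+Veh library, and the lowest of the first lay at 4.20 times the highest of the second. Mean levels were 117 ± 38.2 CPM (SD, n = 4) against 16.1 ± 4.89 (SD, n = 4). The log2 fold change was 2.80 (standard error 0.28, 95% confidence interval 2.21 to 3.39), or 6.96-fold, with an adjusted p of 7.43e-05 by limma voomWithQualityWeights with Benjamini-Hochberg adjustment. Among the 16915 genes tested it had rank 3 by p and rank 35 by log2 fold change. It was the 1 member of 6 called in STZ-HFD, that is with adjusted p below 0.05 and a change of 1 or more on the log2 scale in either direction, where 2.61% of all genes were called. It was also the 1 member of 6 whose libraries did not overlap between the groups, where 4.74% of all genes did not. The log2 fold change was 2.62 to 3.13 with each library left out in turn, and 3.06 without both libraries rich in mitochondrial ribosomal RNA.

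In db/db discs *Pdk4* was at 9.16, 10.3 and 17.4 CPM, and in db/+ discs at 7.06, 9.56 and 5.44 CPM. The groups overlapped, since db/+ 2 was above db/db 1, and db/db 3 was the highest. The log2 fold change was 0.69 (standard error 0.33, 95% confidence interval 0.00 to 1.38), with an adjusted p of 0.235 by limma voomWithQualityWeights with Benjamini-Hochberg adjustment. The response of *Pdk4* differed between the models. The db/db change minus the STZ-HFD change was -2.11 on the log2 scale (standard error 0.43, adjusted p = 0.0251, the same limma fit), and it was the 1 member of 6 that passed at an adjusted p under 0.05, where 1.77% of all genes did. This call depended on the fit. The adjusted p was 0.137 with edgeR's quasi-likelihood test, 0.120 without quality weights and 0.0779 with transcript counts, against 0.00509 with DESeq2. It was 0.0540 to 0.0854 when db/db 1, db/+ 1, db/+ 2, Con+Veh 3, Con+Veh 4 or STZ-HFD 3 was left out, with a difference of -1.86 to -2.44.

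The sequence before the start of *Pdk4* is shown beside that of *Pdk2*, because these kinases were the most abundant in STZ-HFD and only *Pdk4* was called. Both runs are the 250 bases before the RefSeq start on GRCm38.p6, read 5′ to 3′ on the minus strand of the genome, from chr6:5496279-5496528 for *Pdk4* and from chr11:95041372-95041621 for the outermost of the 2 *Pdk2* starts. Capitals mark GCGTG in *Pdk4* and CACGTG in *Pdk2*, which is ACGTG read on both strands with the matches overlapping. ACGTG and GCGTG are core letters of hypoxia response elements, and CACGTG is also an E-box.
Pdk4: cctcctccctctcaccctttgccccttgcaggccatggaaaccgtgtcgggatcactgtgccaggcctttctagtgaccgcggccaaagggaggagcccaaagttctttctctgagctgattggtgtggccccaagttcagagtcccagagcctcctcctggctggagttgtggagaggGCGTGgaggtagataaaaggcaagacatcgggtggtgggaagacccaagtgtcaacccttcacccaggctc
Pdk2: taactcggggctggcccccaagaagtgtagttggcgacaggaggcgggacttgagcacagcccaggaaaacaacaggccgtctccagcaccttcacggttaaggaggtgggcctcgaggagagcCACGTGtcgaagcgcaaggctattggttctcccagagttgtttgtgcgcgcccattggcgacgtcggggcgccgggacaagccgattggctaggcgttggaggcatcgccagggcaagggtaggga
Over the windows of 300 bases from 250 before to 50 after the start, 5 motifs were searched on both strands. GCGTG occurred at 1 place in *Pdk4*, 2 places at the upstream start of *Pdk1* and 3 places in *Pdk3*, and 32.4% of the 32851 promoters of the same length hold it. ACGTG occurred in *Pdk2*, *Pdk3* and *Pdp2*, and 19.6% of all promoters hold it. None of the members' windows held the nuclear receptor motif AGGTCA (16.3% of all promoters), the FoxO site TGTTTAC (3.6%) or TATAAA (13.6%), which says only that these letters are not in these windows. No window was found for *Pdp1*. A match of letters is a description and not a binding site.

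*Pdk2* (ENSMUSG00000038967, chromosome 11 from 95026258 to 95041354, minus strand) is the kinase that dominated in both controls. In STZ-HFD it was at 82.1, 148, 153 and 194 CPM, and in Con+Veh at 139, 114, 111 and 129 CPM. Of the 4 STZ-HFD libraries, 3 were above all Con+Veh libraries in CPM, and STZ-HFD 1, the shallowest library, was below them all. By the transcript estimates STZ-HFD 1 was not low, at 233 TPM. There all 4 STZ-HFD libraries, at 209 to 233 TPM, were above Con+Veh, at 156 to 199 TPM. In CPM 4.74% of all genes did not overlap between these groups. On the transcript counts the log2 fold change was 0.55 (adjusted p = 0.260, limma). On the gene counts it was 0.41 (95% confidence interval -0.02 to 0.83, adjusted p = 0.300, limma voomWithQualityWeights with Benjamini-Hochberg adjustment), or 0.17 without both libraries rich in mitochondrial ribosomal RNA. The db/db libraries had 68.4, 75.4 and 72.8 CPM against 74.0, 115 and 98.6 CPM in db/+, a log2 fold change of -0.39 (-0.89 to 0.11, adjusted p = 0.351, same fit). The db/db libraries lay close together and overlapped only the lowest db/+ library. The antisense gene *Gm11513* runs across the span of *Pdk2* but shares 0 exon bases with it.

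*Pdk3* (ENSMUSG00000035232, chromosome X from 93764607 to 93832201, minus strand) encodes a kinase that pyruvate inhibits little. In db/db it was at 9.58, 7.24 and 11.3 CPM and in db/+ at 5.62, 5.58 and 6.02 CPM. All db/db libraries were above all db/+ libraries, but 25.8% of all genes did not overlap between these groups either. Its log2 fold change was 0.68 (standard error 0.26, 95% confidence interval 0.14 to 1.22), with an adjusted p of 0.146 by limma voomWithQualityWeights with Benjamini-Hochberg adjustment. In STZ-HFD it was at 1.93 to 3.54 CPM and in Con+Veh at 1.17 to 6.75 CPM, and the groups overlapped. Con+Veh 2 alone was above every STZ-HFD library. This gave a log2 fold change of -0.16 (95% confidence interval -0.92 to 0.59).

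*Pdk1* (ENSMUSG00000006494, chromosome 2 from 71873224 to 71903858, plus strand) was called in neither model. Its levels were 9.42 to 16.4 CPM in db/+ and 11.5 to 12.5 CPM in db/db, and in the other cohort 9.64 to 21.1 CPM in Con+Veh and 11.7 to 18.2 CPM in STZ-HFD. The groups overlapped in both models. Its log2 fold change was -0.03 in db/db (95% confidence interval -0.61 to 0.55) and 0.38 in STZ-HFD (-0.16 to 0.93). No member was called in db/db by limma voomWithQualityWeights, edgeR's quasi-likelihood test or DESeq2 (0 of 6 in each), where limma called 1.66% of all genes, and 2 of 6, *Pdk3* and *Pdk4*, had an unadjusted p under 0.05.

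**Figure D2:**
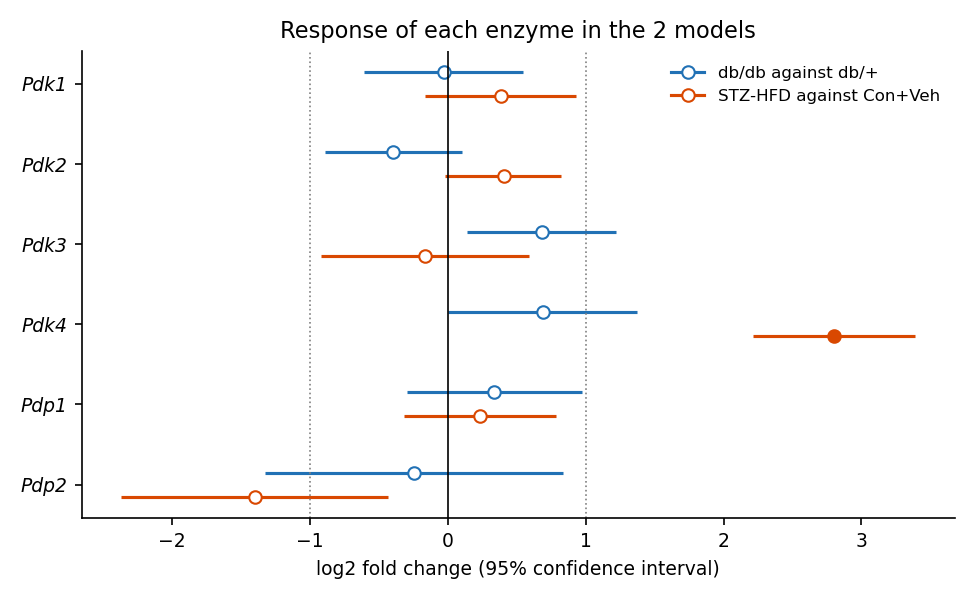
Log2 fold change of each gene in db/db against db/+ (blue) and STZ-HFD against Con+Veh (orange), with 95% confidence intervals from the limma fit as lines and filled points for called genes. The interval of *Pdk4* in STZ-HFD, 2.21 to 3.39, is the one that lies beyond the dotted lines at a log2 fold change of 1 and -1.

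The phosphatase *Pdp1* (ENSMUSG00000049225, chromosome 4 from 11958184 to 11966452, minus strand) encodes the calcium-sensitive catalytic subunit and was the more abundant phosphatase per length by the mean of every group. It was at 12.8, 26.4, 37.1 and 28.4 CPM in STZ-HFD and at 15.5, 32.3, 24.8 and 24.2 CPM in Con+Veh. The ranges overlapped almost wholly, with a log2 fold change of 0.23 (95% confidence interval -0.32 to 0.78). In db/db it was at 23.9, 12.0 and 14.1 CPM against 12.5, 15.8 and 9.23 CPM in db/+, with a log2 fold change of 0.34 (-0.29 to 0.97). Neither change passed the test, and db/db 1 alone stood above the db/+ libraries. With the score of skeletal muscle markers as a covariate the log2 fold change of *Pdp1* was 1.14 in db/db (adjusted p = 0.0501, limma) and -0.73 in STZ-HFD, and the difference between the models was 1.87 (adjusted p = 0.0770, limma) in place of 0.11.

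*Pdp2* (ENSMUSG00000048371, chromosome 8 from 104591451 to 104599026, plus strand) encodes the catalytic subunit that is less sensitive to calcium. In Con+Veh it was at 6.85, 3.68, 31.3 and 17.2 CPM and in STZ-HFD at 3.58, 9.08, 6.93 and 8.15 CPM. Con+Veh 3 and Con+Veh 4 were high, and the other Con+Veh libraries lay within the range of STZ-HFD. The log2 fold change was -1.40 (standard error 0.46, 95% confidence interval -2.37 to -0.43), with an adjusted p of 0.103 by limma voomWithQualityWeights with Benjamini-Hochberg adjustment. Con+Veh 3 had the largest weight of all libraries in this fit, 3.05, and without weights the log2 fold change was -0.51. Without Con+Veh 3 it was -0.37 (adjusted p = 0.902, limma), and with the adipocyte score or both marker scores it was -2.56 and -2.82, neither of them called. The transcript counts gave another picture of the same libraries. Con+Veh 3 had 665 gene counts of *Pdp2* and 45.0 transcript counts, a ratio of 14.8, and Con+Veh 4 had 316 and 49.0, a ratio of 6.45, while the ratio was 2.27 to 5.27 in the other 12 libraries. On the transcript counts the log2 fold change in STZ-HFD was -0.07. In db/db *Pdp2* was at 4.70 to 5.57 CPM against 4.99 to 8.82 CPM in db/+, with overlap and a log2 fold change of -0.25 (-1.33 to 0.84).

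The makeup of the kinase RNA differed between STZ-HFD and Con+Veh, while protein amount and activity of these enzymes were not measured. Of the summed kinase level per length, *Pdk4* made up 45.5%, 49.6%, 40.0% and 28.8% in the STZ-HFD libraries and 11.2%, 8.3%, 13.3% and 6.6% in Con+Veh. The groups did not overlap, and the share of *Pdk2* was 48.1% to 67.1% against 79.9% to 86.4%. In the db/db libraries *Pdk4* made up 8.9%, 9.4% and 14.6% and in db/+ 7.0%, 6.3% and 4.2%, without overlap, at a smaller scale. By the transcript estimates the db groups did overlap, with 6.6% to 18.6% in db/db and 4.1% to 8.2% in db/+. The share of *Pdk3* was 9.1% to 13.0% in db/db and 5.0% to 7.6% in db/+, against 8.1% to 14.2% and 4.2% to 8.1% by the transcript estimates. These shares are descriptions with no test, and the transcript counts over transcript lengths gave similar mean shares of *Pdk4*, 38.8% in STZ-HFD and 10.2% in Con+Veh against 41.0% and 9.8% from the gene counts.

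The summed kinase level was 53.5 to 97.4 RPKM in STZ-HFD and 43.3 to 51.7 RPKM in Con+Veh, so every STZ-HFD library was above every control. In the db model it was 29.5 to 34.0 RPKM in db/db and 28.8 to 43.3 RPKM in db/+, with overlap. The ratio of the kinase sum to the phosphatase sum was 9.12 to 15.4 in STZ-HFD and 3.95 to 11.2 in Con+Veh, and these ranges overlapped through Con+Veh 1. The lowest value was that of Con+Veh 3, where *Pdp2*, whose gene counts were 14.8 times its transcript counts, made up the same level as *Pdp1*. By the transcript estimates the ratio was 6.55 to 16.1 in STZ-HFD and 3.75 to 5.89 in Con+Veh, without overlap. In the db model the means lay the other way, at 7.32 ± 2.27 in db/db (SD, n = 3) and 9.62 ± 2.90 in db/+ (SD, n = 3), with overlap. In STZ-HFD 2 the level per length of *Pdk4* was slightly above that of *Pdk2*, at a ratio of 1.03, and the ratio was 0.43 to 0.94 in the other STZ-HFD libraries and 0.076 to 0.164 in Con+Veh.

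**Figure D3:**
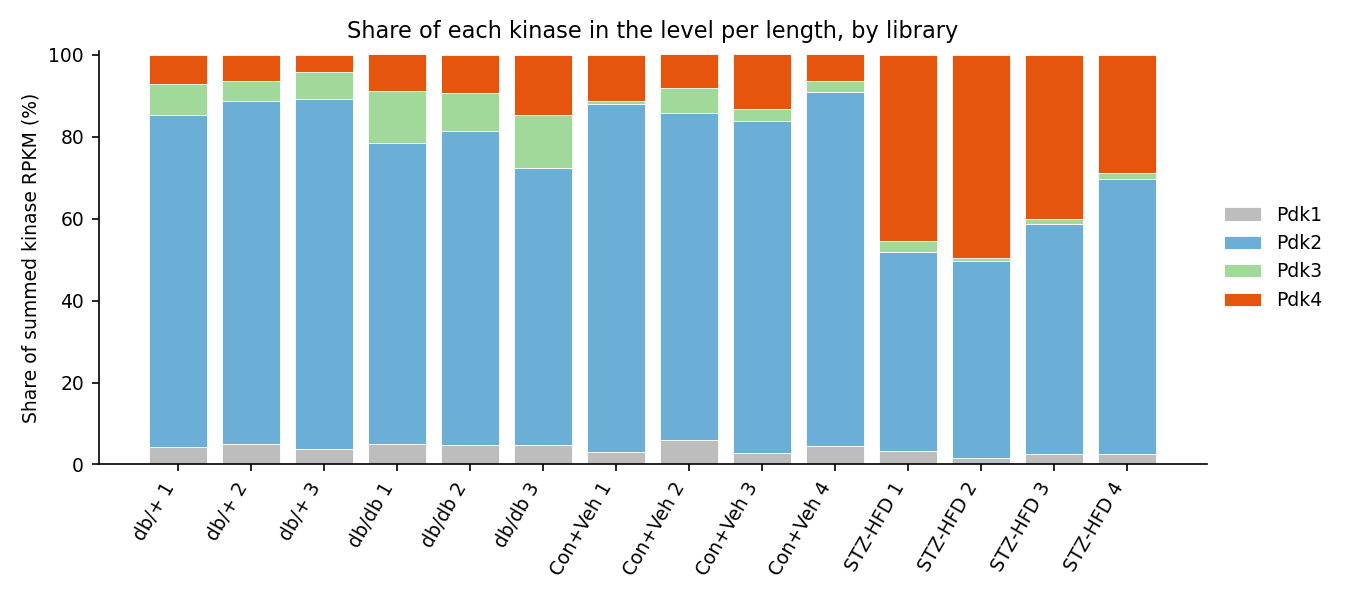
Share of *Pdk1*, *Pdk2*, *Pdk3* and *Pdk4* in the summed kinase level per length (percent of RPKM, stacked to 100) for each of the 14 libraries. *Pdk4* takes 28.8% to 49.6% of each STZ-HFD bar and 6.6% to 13.3% of each Con+Veh bar.

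Levels of muscle and fat markers moved with the groups. Summed skeletal muscle markers, 15 of 15 above 0 in all libraries, were at 10900, 26540, 29200 and 25320 CPM in STZ-HFD and at 9908 to 13550 CPM in Con+Veh. In STZ-HFD 1 the muscle sum lay within the Con+Veh range, and *Pdk4* was at 85.4 CPM there, above every control value. STZ-HFD 1 was the shallowest library and stood apart from its group. Its TMM factor was 1.58, against 0.693 to 0.742 in the other STZ-HFD libraries and 0.764 to 0.818 in Con+Veh. Its weight in the fit was 0.379. CPM are divided by the TMM factor, and the place of this library's muscle sum within the Con+Veh range depends on it. Muscle markers were lower in db/db than in db/+ (3620 to 6043 against 5595 to 10930 CPM), where *Pdk4* was not lower. Per 1000 CPM of muscle markers, *Pdk4* was at 3.65 to 7.84 CPM in STZ-HFD and 0.881 to 2.04 in Con+Veh. In the db model it was at 1.52 to 4.74 in db/db and 0.754 to 0.972 in db/+. Neither model overlapped its control on this scale. In CPM *Pdk4* did overlap between the db groups, while the muscle sum it was divided by was lower in db/db. Of all genes, 25.8% did not overlap in CPM between the db groups and 4.74% between STZ-HFD and Con+Veh. With a muscle marker score as a covariate, the *Pdk4* log2 fold change in STZ-HFD was 2.61 (adjusted p = 0.0131, limma), and the difference between the models was -1.76 (adjusted p = 0.209, limma).

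The adipocyte markers, of which *Ucp1* was at 0 in 10 libraries, summed to 857 to 1049 CPM in STZ-HFD and to 397 to 949 CPM in Con+Veh. Con+Veh 3 lay within the STZ-HFD range, and *Pdk4* was at 20.3 CPM in it. In db/db the adipocyte sum was 367 to 667 CPM and in db/+ 213 to 431 CPM. A large part of it was Cfd, adipsin, at 142 ± 48.6 CPM in db/db (SD, n = 3) and 215 ± 93.4 in db/+ (SD, n = 3), while limma called 5 of the 9 tested higher in db/db, where 1.23% of all genes were, with a median log2 fold change of 1.57. DESeq2 called 5 and edgeR's quasi-likelihood test 0. The largest change was in Retn, resistin, 6.72-fold (adjusted p = 0.0115, limma), and 8 of 9 did not overlap between the db groups, where 25.8% of all genes did not. In STZ-HFD limma called 1 of 9 higher, with a median of 0.64, and edgeR called 1 and DESeq2 2. With the score of adipocyte markers in the fit, the log2 fold change of *Pdk4* in STZ-HFD was 2.70 but the adjusted p was 0.0710 (limma), in a fit that called 3 of 16915 genes. With both scores, a fit chosen after the data were seen, it was 2.36 (adjusted p = 0.171, limma), and 0 genes of 16915 were called, with 1771 at an unadjusted p under 0.05. The part of muscle and fat in the level of *Pdk4* was not tested beyond these fits.

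**Figure D4:**
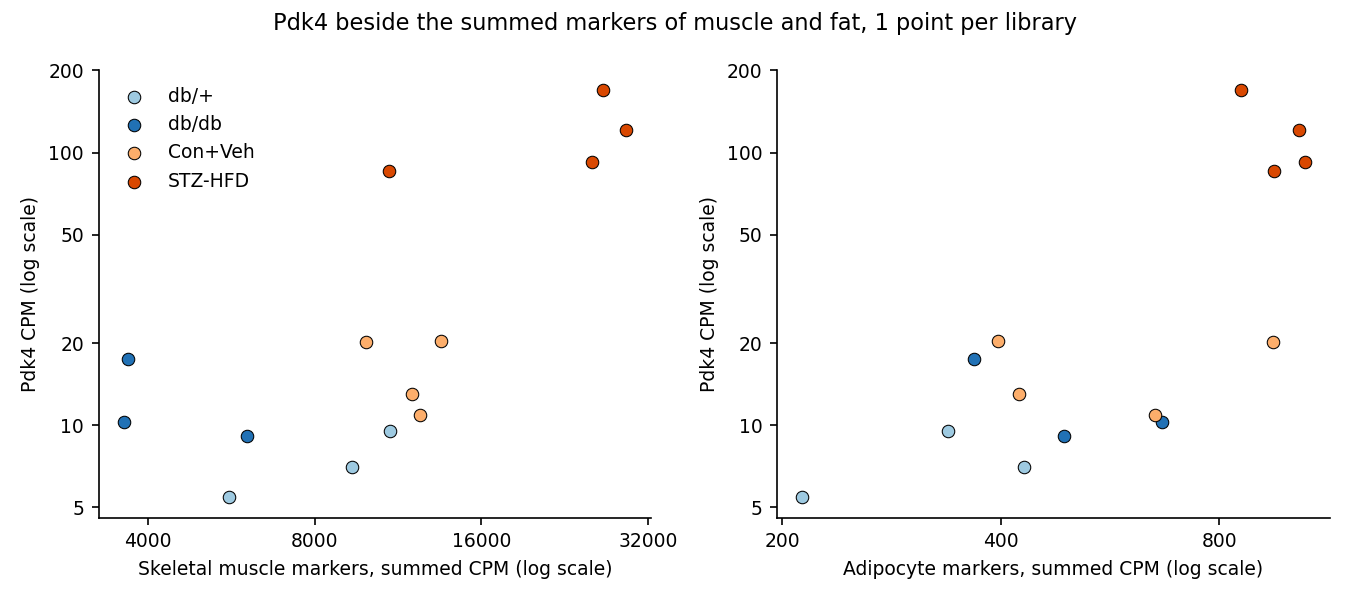
*Pdk4* in CPM against the summed CPM of the skeletal muscle markers (left) and of the adipocyte markers (right), both axes on log scales, 1 point per library, coloured by group. STZ-HFD 1 has a muscle sum of 10900 CPM, within the Con+Veh range, and *Pdk4* at 85.4 CPM. It is the shallowest library, with a weight of 0.379 in the fit, and its place on the muscle axis depends on its TMM factor of 1.58.

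The PDH complex itself, the substrate of these enzymes, was measured through the genes of its E1 subunits (*Pdha1* and *Pdhb*), E2 (*Dlat*), E3 (*Dld*), the E3-binding protein (*Pdhx*) and the regulatory subunit of the phosphatase (*Pdpr*). In STZ-HFD 0 of 6 were called by limma voomWithQualityWeights, edgeR's quasi-likelihood test or DESeq2, although all 6 log2 fold changes were above 0, from 0.57 (*Dld*) to 1.04 (*Pdhx*), and 5 had an unadjusted p under 0.05. The median was 0.86, against -0.04 over all genes tested. Skeletal muscle markers moved the same way, with a median of 1.11, and their part in these changes was not tested gene by gene. *Pdha1*, the subunit that the kinases phosphorylate, was at 49.6 ± 15.9 CPM (SD, n = 4) against 30.6 ± 10.3, with a log2 fold change of 0.88 (adjusted p = 0.0831, limma). In db/db 0 of 6 were called by the same tools, 1 had an unadjusted p under 0.05, and *Pdha1* had a log2 fold change of 0.09 (95% confidence interval -0.57 to 0.75).

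Genes that handle pyruvate and lactate were called higher in 1 of 6 tested in each model, where 1.30% of all genes were called higher in STZ-HFD against 1.23% in db/db. The db/db gene was *Mpc2*, a subunit of the mitochondrial pyruvate carrier, at 26.1 ± 5.19 CPM against 11.8 ± 2.26, with a log2 fold change of 1.14 (adjusted p = 0.0390, limma). The call was lost when any 1 of the 6 db libraries was left out. In both models edgeR's quasi-likelihood test and DESeq2 called 0 of 6, and by limma the unadjusted p was under 0.05 for 3 genes of db/db and 5 of STZ-HFD. In STZ-HFD the called gene was *Slc16a3*, the lactate exporter MCT4, with a log2 fold change of 1.11 (adjusted p = 0.0443, limma). There *Mpc2* had a log2 fold change of 0.98 (adjusted p = 0.0321, limma), just under the fold minimum. Muscle markers were higher in STZ-HFD too, and their part in these values was not tested gene by gene. The kinase *Bckdk* and phosphatase *Ppm1k* of the branched-chain ketoacid dehydrogenase, the sister complex, were not called in either model (0 of 2 by each of the 3 tools). *Bckdk* had a log2 fold change of 0.62 in STZ-HFD and -0.49 in db/db, and *Ppm1k* 0.26 and 0.95.

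Transcription factors and coactivators known to act on *Pdk4* or *Pdk2* were called in 1 of 13 tested in STZ-HFD by limma, where 2.61% of all genes were, and in 0 of 13 by edgeR's quasi-likelihood test or DESeq2, with 4 at an unadjusted p under 0.05 by limma. *Esrrg*, the estrogen-related receptor gamma, was at 13.3 ± 3.34 CPM against 6.61 ± 0.997 (log2 fold change 1.22, adjusted p = 0.0321, limma). Its groups did not overlap, as held for 3 of 13, where 4.74% of all genes did not. The other genes without overlap were *Esrrb* (1.20, adjusted p = 0.0774, limma) and *Ppara* (1.05, adjusted p = 0.205, limma), neither of them called. *Ppargc1a*, the coactivator PGC-1 alpha, had a log2 fold change of 0.94 (adjusted p = 0.0502, limma), and *Foxo1*, whose product drives *Pdk4* when insulin is low, had -0.28 (95% confidence interval -0.84 to 0.29). Muscle markers were also higher in STZ-HFD, and their part in the changes of these regulators was not tested gene by gene. In db/db 0 of 13 were called by limma, edgeR's quasi-likelihood test or DESeq2, with 2 at an unadjusted p under 0.05.

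Of 19 genes known as PPAR targets, which carry and burn fatty acids, 7 were called higher in STZ-HFD and 0 lower by limma, where 1.30% of all genes were called higher and 1.31% lower. DESeq2 called 7 and edgeR's quasi-likelihood test 1. The largest change was in *Fabp3*, the heart-type fatty acid-binding protein, from 4.72 ± 1.27 to 47.2 ± 17.3 CPM (log2 fold change 3.26, adjusted p = 9.26e-06, limma). *Ucp3*, a mitochondrial carrier of the uncoupling family, and *Acadl*, a dehydrogenase of fatty acid oxidation, each had a log2 fold change of 1.83, with adjusted p values of 0.0320 and 0.00658 (limma). The median of the list was 0.92, and muscle markers moved with it, with 7 of 15 called higher in STZ-HFD. In db/db 2 of 19 were called higher and 0 lower, where 0.432% of all genes were called lower. These were the fatty acid transporter *Cd36* (log2 fold change 2.16, adjusted p = 0.00784, limma) and the lipid droplet gene *Plin2* (1.01, adjusted p = 0.0285, limma). DESeq2 called 2 and edgeR's quasi-likelihood test 0. The adipocyte markers moved with them, 5 of 9 called higher in db/db, and their part in these calls was not tested.

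Among 15 genes known to rise with FoxO or glucocorticoid receptor activity, *Trim63*, the muscle ubiquitin ligase MuRF1, was the 1 called in STZ-HFD (log2 fold change 1.36, adjusted p = 0.0104, limma), and *Mt2*, a metallothionein, the 1 called in db/db (1.79, adjusted p = 0.0450, limma), where 2.61% and 1.66% of all genes were called. By edgeR's quasi-likelihood test 0 of 15 were called in either model, and by DESeq2 1 in STZ-HFD and 0 in db/db. Of 14 genes known as targets of the hypoxia-inducible factor, *Pdk1* not counted, 0 were called in either model by limma, edgeR's quasi-likelihood test or DESeq2, and 3 had an unadjusted p under 0.05 in each. Of 8 genes of insulin signalling, the glucose transporter *Slc2a4* and the hexokinase *Hk2* were called higher in STZ-HFD, with log2 fold changes of 1.30 and 1.29 (adjusted p of 0.0186 and 0.00969, limma), where 1.30% of all genes were called higher. DESeq2 called 2 of 8 and edgeR's quasi-likelihood test 0. Muscle markers, 7 of 15 called higher in STZ-HFD, moved with *Trim63*, *Slc2a4* and *Hk2*. The part of muscle in these calls was not tested gene by gene. In db/db 0 of 8 were called by the 3 tools, with 1 at an unadjusted p under 0.05.

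Skeletal muscle markers, many of which are genes of contraction, were called higher in 7 of 15 in STZ-HFD by limma, where 1.30% of all genes were, with a median log2 fold change of 1.11. They were called lower in 1 of 15 (*Myh1*) in db/db, where 0.432% of all genes were, with a median of -0.96. DESeq2 called 3 in STZ-HFD and 2 in db/db, and edgeR's quasi-likelihood test 0 in both. The largest log2 fold change of a muscle marker in STZ-HFD was that of *Myh7*, at 1.72, and that of *Pdk4* was 2.80. With the muscle score in the fit the *Pdk4* value was 2.61 (adjusted p = 0.0131, limma). With both marker scores it was 2.36 (adjusted p = 0.171, limma). The part of muscle in it was not tested beyond these fits.

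The counts of the lists rested on a few libraries. Without Con+Veh 3, Con+Veh 4 or STZ-HFD 3, calls over all genes in STZ-HFD fell from 441 to 14, 15 and 18, the PPAR targets from 7 to 1 and the muscle markers from 7 to 0, and *Pdk4* was called in each of these fits. The single calls of *Slc16a3*, *Esrrg* and *Trim63* in STZ-HFD were lost without any 1 of Con+Veh 3, Con+Veh 4, STZ-HFD 3 and STZ-HFD 4, that of *Slc16a3* also without db/db 1 or db/+ 1, and the calls of *Slc2a4* and *Hk2* without Con+Veh 3, Con+Veh 4 or STZ-HFD 3. Without STZ-HFD 4, 1 muscle marker was called, and without STZ-HFD 2, 4 were. In db/db, calls over all genes fell from 281 to between 21 and 143 without any 1 of the 6 db libraries, and 1 of 2 PPAR targets was called without db/db 1, db/db 2, db/db 3, db/+ 2 or db/+ 3. With the muscle score as a covariate, 1 PPAR target was called in STZ-HFD. Without both libraries rich in mitochondrial ribosomal RNA, calls over all genes in STZ-HFD went from 220 higher and 221 lower to 64 and 172, with 4 PPAR targets, 1 muscle marker, 1 gene of insulin signalling and neither *Slc16a3* nor *Esrrg* called, and calls in db/db went from 281 to 388.

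**Figure D5:**
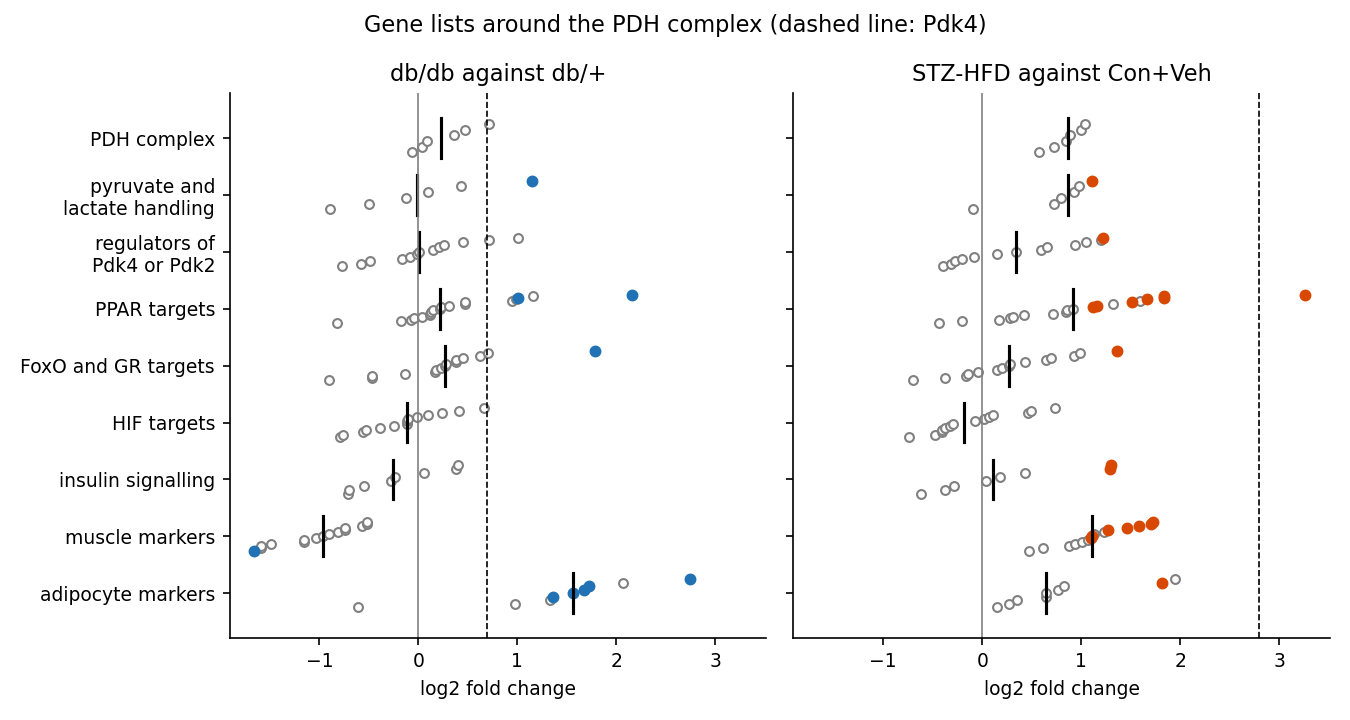
Log2 fold change of each gene of 9 lists in db/db (left) and STZ-HFD (right), with filled points for called genes, a black bar at each list's median and a dashed line at *Pdk4* (0.69 and 2.80). In STZ-HFD only *Fabp3*, at 3.26, lies beyond *Pdk4*.

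The genes most like each member across the 14 libraries were found by Pearson's r of log2 CPM after the mean of each model was taken off, over 13622 protein-coding genes. For *Pdk4* these included *Fabp3* (r = 0.95), *Cpt1a* (0.92), *Ech1* (0.87) and *Apol6* (0.87). *Cpt1a* encodes the enzyme that admits long-chain fatty acids into mitochondria, and *Ech1* an enzyme of their oxidation. For *Pdk2* they were *Mapt*, *Prob1*, *Rps6kb2*, *Cnksr1* and *Etl4* (0.88 to 0.90), for *Pdk3* *Atp6v0e*, *Cand1*, *Sec61b*, *Xpo1* and *Rap2c* (0.94 to 0.96) and for *Pdk1* *Umad1*, *Reep1*, *Map2k4*, *Dusp18* and *Cep68* (0.79 to 0.85). For *Pdp1* they were *Serpinb6a*, *Tor1aip2*, *Nars*, *Psmc3* and *Pcyox1* (0.90 to 0.95) and for *Pdp2* *Car5a*, *Amer1*, *Pip4k2a*, Nfkbiz and *Tbc1d22b* (0.87 to 0.93). Between members r ran from -0.53 (*Pdk1* with *Pdp2*) to 0.48 (*Pdk1* with *Pdk3*), and *Pdk4* had r from -0.28 to 0.17 with the others. The mean was taken over both groups of a model, so the change between a model and its control stays in r. *Fabp3* and *Pdk4*, both called higher in STZ-HFD, share a high r through that change as well. The points also share library depth and tissue makeup, so these values are descriptions.

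The transcripts of the members were estimated by Salmon. Pdk4-201 held 82.4% of the *Pdk4* transcript counts in db/+, 85.5% in db/db, 91.3% in Con+Veh and 91.0% in STZ-HFD, so the same transcript dominated in each group. Pdk2-201 held 99.4% to 99.7% in each group and Pdk3-201 98.9% to 100%. Pdk1-201 held 67.9% in db/+, 90.6% in db/db, 69.2% in Con+Veh and 79.4% in STZ-HFD. *Pdp1* was spread over several transcripts, and Pdp1-201 had 0 counts in a library of Con+Veh and of STZ-HFD and up to 216 in another, so its isoforms could not be compared at this depth.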

How the data were processed

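RNA of pooled tail discs from 14 mice was amplified (SeqPlex) and sequenced. Per the labels and the methods of the study, the authors aligned reads with STAR to GRCm38 with Ensembl gene models and deposited whole-number counts per gene from featureCounts, without normalization, and estimated counts per transcript from Salmon. Whether counting used the strand is not given in the sources used here, so genes with an antisense partner are uncertain. The gene table held 55774 lines, of which 287 repeated a gene with identical values and were used once. Groups came from the labels, which give all libraries 1 batch. Replicates are separate mice.

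Here the gene counts were normalized by TMM (edgeR 4.0.16, R 4.3.3) after keeping 16915 genes that exceeded 1 CPM in 3 or more libraries. CPM are scaled by the library total of kept genes times its TMM factor, and RPKM divide them by the kilobases of the union of exons in GENCODE M21. The test was voomWithQualityWeights of limma 3.58.1, named by the study, with 1 mean for each of 4 groups in 1 fit and Benjamini-Hochberg adjustment over all genes in each contrast. A call needed adjusted p below 0.05 and a change of 1 or more in either direction on the log2 scale, and the difference of the responses at an adjusted p under 0.05. The fit was also run on counts simulated with known folds, and the outcome is not given here. Estimated counts were summed per gene and rounded for 1 alternative, and kept as estimated for the isoforms.

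The 6 members and the gene lists were chosen with earlier results of these data known. The genes named were all members, all PDH complex genes with *Bckdk* and *Ppm1k*, up to 3 called genes with the largest change per list and contrast, and the 5 protein-coding genes most like each member. A gene that this last rule names is not reported here. *Mpc2* in STZ-HFD and *Ppargc1a*, *Foxo1*, *Esrrb*, *Ppara*, Cfd and *Myh7* were named after their values were seen. The alternatives tried were DESeq2 1.42.0, edgeR's quasi-likelihood test, RLE size factors, voom without weights, no filter or filterByExpr, each model fitted alone, a replicate block, transcript counts, covariates for the scores of muscle or adipocyte markers, no fold minimum, ribosomal RNA removed, a GC trend removed over 20 bins, and leaving out single libraries or both libraries whose names end in RIP (Con+Veh 2 and STZ-HFD 4). Both scores together were added after the data were seen. Promoter windows came from RefSeq (GRCm38.p6).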

Additional observations from a re-analysis of the deposited data

Results flagged for a closer look

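The response of *Pdk4* differed between the models by the test of the difference itself. The db/db change minus the STZ-HFD change was -2.11 on the log2 scale (standard error 0.43, 95% confidence interval -3.01 to -1.21, adjusted p = 0.0251, limma voomWithQualityWeights with Benjamini-Hochberg adjustment). The levels behind it were 12.3 ± 4.50 CPM in db/db (SD, n = 3), 7.35 ± 2.08 in db/+ (n = 3), 117 ± 38.2 in STZ-HFD (n = 4) and 16.1 ± 4.89 in Con+Veh (n = 4). All 4 STZ-HFD libraries were above their controls, and 2 of 3 db/db libraries were above the highest db/+ library. The models also differ in genotype, age, diet and streptozotocin, which cannot be told apart from the response. Skeletal muscle markers moved in opposite directions, at a median log2 fold change of 1.11 for STZ-HFD against -0.96 for db/db. Fitted beside the muscle score, the *Pdk4* difference was -1.76 (adjusted p = 0.209, limma). It was -2.17 beside the adipocyte score (adjusted p = 0.0419, limma) and -1.82 beside both (adjusted p = 0.168, limma). The part of tissue makeup was not tested further. Single libraries were looked at in 12 groups of 4, the Con+Veh and STZ-HFD levels of each gene, and none stood far enough from the others to be listed.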

How the results depend on the processing

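No member was called in db/db under any of 16 alternatives or 14 fits without 1 library. In STZ-HFD 1 member, *Pdk4*, was called, and 2 were with the replicate block (*Pdk4* and *Pdp2*), against 0 with the adipocyte score and 0 with both scores, and 1 to 2 with each library left out (2 without Con+Veh 2, where *Pdp2* was also called). *Pdk4* in STZ-HFD had a log2 fold change of 2.36 to 3.06 over the 16 alternatives, with an adjusted p of up to 0.171. The count of members whose response differed between the models went from 1 to 0 with edgeR's quasi-likelihood test, without quality weights, with transcript counts, with the muscle score and with both scores, and was 0 to 1 with each library left out. The replicate numbers were not taken as pairs in the main fit. The deviations of same-numbered libraries correlated at -0.28 to 0.19 in the db model and -0.26 to -0.04 in the other. With 3 and 4 pairs, these values cannot exclude pairing by litter or handling. With the replicate block, db/db had 1484 calls over all genes and STZ-HFD had 997, against 281 and 441. Over all genes in db/db and STZ-HFD, edgeR's quasi-likelihood test called 0 and 29, DESeq2 211 and 272, voom without weights 9 and 19, transcript counts 144 and 56, filterByExpr 236 and 217, no filter 534 and 130, the GC correction 138 and 359, each model alone 332 and 235, the muscle score 249 and 159, the adipocyte score 0 and 3 and both scores 24 and 0. With edgeR in db/db, 1891 genes had an unadjusted p under 0.05, and with the adipocyte score 1304.

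Some values changed sign, and none of them passed the test before or after. *Pdk1* in db/db was 0.12 with the block, 0.21 with transcript counts, 0.23 with the muscle score, 0.58 with the adipocyte score and 0.80 with both, and -0.14 to 0.23 with each library left out. With both scores *Pdk2* in db/db was 0.046 in place of -0.39, *Pdp1* in STZ-HFD was -0.90 and the difference in *Pdk1* was 0.43 in place of -0.41. With the muscle score *Pdp1* in STZ-HFD was -0.73 and the difference in *Pdk1* was 0.20. With the GC correction *Pdp1* was -0.065 in db/db and its difference was -0.25. With transcript counts the difference in *Pdp2* was -0.20 in place of 1.15. With each library left out, the ranges were -0.40 to 0.023 for *Pdp2* in db/db, and in STZ-HFD -0.038 to 0.49 for *Pdk1*, -0.365 to 0.025 for *Pdk3* and -0.013 to 0.37 for *Pdp1*. The differences ranged from -0.53 to 0.007 for *Pdk1* and from -0.18 to 0.35 for *Pdp1*. The cause was not tested for any of these.

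With 3 or 4 mice a group, the widest 95% confidence interval of a change against a control was that of *Pdp2* in db/db, from -1.33 to 0.84. The interval of the *Pdp2* difference between the models was wider still, from -0.30 to 2.60 on the log2 scale.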
